A study of Saccharomyces cerevisiae with 232 samples.

Results

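Budding yeast of mating type a make a small lipid-modified pheromone and answer the pheromone of the opposite mating type. The 8 genes described here carry out that exchange: MFA1 and MFA2 encode the a-factor precursors, STE6 the transporter that exports a-factor, STE2 the receptor for alpha-factor, BAR1 the secreted protease that degrades alpha-factor, AGA1 and AGA2 the anchor and the binding subunit of the a-agglutinin on the cell surface, and FUS1 a membrane protein of cell fusion. They were taken as a named list of 8 genes from the 6692 genes in the deposited RNA and footprint tables, and all 8 were found in both tables. The list names genes and uses no measured value, but it was chosen with earlier results of these data known.

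Ribosome profiling counts the mRNA fragments that ribosomes shield from nuclease, and matched RNA sequencing measures mRNA level. The study profiled 57 deletion strains of genes for tRNA modification and wild type, all in the strain BY4741, which is of mating type a. Each deletion was a replacement with the kanMX cassette, such as gon7D::kanMX, and each strain stands for 1 deletion. Cells grew in the rich medium YPD at 30 °C, and 100 µg/mL cycloheximide was given for 30 s to arrest ribosomes. Of the 127 footprint libraries from these cells, 2 came from each of 56 strains, 1 from kti13D and 14 from wild type. The RNA side had 57 deletion libraries, 1 a strain, and 10 wild-type libraries. Footprints were also taken from drug-free cells, in 6 libraries, 1 from each of elp3D, mod5D, tan1D, trm7D, tyw4D and wild type. Other series samples were not used here. The sources used here do not say that the libraries of a strain are separate cultures. The p-values then describe library spread, which may be technical.

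Levels are RPKM, reads per kilobase of gene per M mapped reads. Mapped reads recovered from the steps in the values lay between 0.811 and 16.3 M a footprint library and between 3.77 and 14.2 M an RNA library. Changes are differences of log2(RPKM + 1), which understate changes of low genes such as FUS1. A call is an adjusted p under 0.05 in limma, with Benjamini-Hochberg adjustment over all 4281 genes tested in footprints. The libraries fell into 3 processing sets, each a group of strains that the authors divided by the same wild-type libraries. There were 11 strains in set 1, 39 in set 2 and 6 in set 3, beside 6, 4 and 4 footprint libraries of wild type in the same order. The strain dus2D could be tied to no set. A fit with the set as a term was run beside the main one, and its value is given where the sets matter. In all 57 strains, footprints and RNA of the deleted gene lay below every wild-type library.

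In haploid cells of mating type a, the a-specific genes are on by default. The factor Mcm1 binds an operator upstream of each of them, and in alpha cells the repressor alpha2 joins Mcm1 at that operator and shuts the genes off. Pheromone signalling runs from the receptor through a G protein and a MAP kinase cascade to the factor Ste12, which binds the pheromone response element. Cells keep a low basal activity of this cascade without pheromone. AGA1 and FUS1 are not restricted to mating type a and answer to Ste12. On the side of the deletions, the KEOPS complex (Bud32, Gon7 and Cgi121 among its subunits) makes threonylcarbamoyl adenosine in tRNAs that read codons starting with A. Elongator and its Kti partners, the Urm1 thiolation pathway and Trm9 with its partner Trm112 build the modified wobble uridine of tRNAs that read AAA, CAA and GAA. Trm7 methylates riboses in the anticodon loop together with Trm732 or Rtt10.

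Windows with operators or response elements upstream of the start codons of the 8 genes are shown because the genes move together in several strains. They were read from the R64 RefSeq genome on the strand of each gene, 5′ to 3′. Capitals in the first 6 mark the operator letters, CATGTNANNNNCCNNNNNNGG in MFA1, MFA2 and STE2 and CATGTNANNNCCNNNNNNGG in STE6, BAR1 and AGA2, on either strand. Capitals in the last 2 mark TGAAACA. That element was found upstream of all 8 members, and where it falls in the first 6 windows, as in BAR1, it is left in small letters. The operator letters were set after these members' sequences had been read, so their presence in the members is built in.
MFA1 chrIV:1384940-1384984, + strand: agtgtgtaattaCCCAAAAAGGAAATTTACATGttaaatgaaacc
MFA2 chrXIV:352161-352205, + strand: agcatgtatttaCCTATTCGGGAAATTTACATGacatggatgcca
STE2 chrVI:82339-82383, + strand: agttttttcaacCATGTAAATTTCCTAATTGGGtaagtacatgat
STE6 chrXI:46476-46519, − strand: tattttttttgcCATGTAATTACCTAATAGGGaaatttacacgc
BAR1 chrIX:322066-322119, + strand: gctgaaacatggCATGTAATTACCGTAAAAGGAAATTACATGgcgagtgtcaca
AGA2 chrVII:437100-437143, − strand: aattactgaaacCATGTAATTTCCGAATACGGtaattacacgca
AGA1 chrXIV:703487-703513, + strand: cataattttcTGAAACAatattaaaac
FUS1 chrIII:71606-71659, + strand: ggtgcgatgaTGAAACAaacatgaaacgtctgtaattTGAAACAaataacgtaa

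Of 6019 genes searched over the 500 bases before the start codon on both strands, 9 held either operator spelling, which is 0.150%. These were MFA1, MFA2, STE2, STE6, BAR1, AGA2, the a-specific gene ASG7, MOG1, and GYP8, whose upstream window overlaps that of its neighbour STE2. AGA1 and FUS1 held neither spelling in this window. The operator letters began or ended between 298 and 193 bases before the start codon in the members. TGAAACA was found upstream of 8 of 8 members, against 722 of all 6019 genes, or 11.995%. A match describes letters only and is not evidence of a bound factor.

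The a-factor genes are also short, which sets how many reads they give. MFA1 (YDR461W, chrIV:1385176-1385286, + strand) has 36 codons and MFA2 (YNL145W, chrXIV:352414-352530, + strand) has 38. Their coding sequences are given with the in-frame AAA, CAA and GAA codons in capitals, the codons read by tRNAs that carry the Elongator and thiolation modifications.
MFA1: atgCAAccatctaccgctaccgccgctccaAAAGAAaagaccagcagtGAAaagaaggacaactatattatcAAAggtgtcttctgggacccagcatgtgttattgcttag
MFA2: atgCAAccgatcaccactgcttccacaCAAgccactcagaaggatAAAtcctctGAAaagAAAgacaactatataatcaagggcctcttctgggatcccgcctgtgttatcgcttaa

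The last 13 codons, which cover most but not all of the mature a-factor and the signal for its lipid anchor, matched at 32 of 39 bases. All stretches of 27 bases within both genes were unique in the genome, so uniquely mapped reads could tell the 2 copies apart. The other members were STE6 (YKL209C, chrXI:42423-46295, − strand), STE2 (YFL026W, chrVI:82580-83875, + strand), BAR1 (YIL015W, chrIX:322342-324105, + strand), AGA1 (YNR044W, chrXIV:703699-705876, + strand), AGA2 (YGL032C, chrVII:436570-436833, − strand) and FUS1 (YCL027W, chrIII:71803-73341, + strand). Each is a protein-coding gene with no annotated gene overlapping it. In AGA1, 94.5% of the 27-base stretches were unique, and in the other members all were. The lowest library count was 6 footprint reads for FUS1, in rtt10D library 1, and 22 and 23 for AGA2 and AGA1, both in trm112D library 2. For the other members no footprint library held fewer than 50 reads.

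In wild type, the a-factor genes had the highest footprint levels of the 8 and FUS1 the lowest. RNA averaged 739 ± 59.3 RPKM for MFA2, 391 ± 50.5 for MFA1, 344 ± 21.3 for STE2, 151 ± 9.17 for BAR1, 109 ± 3.15 for STE6, 78.5 ± 8.31 for AGA2, 15.02 ± 2.41 for FUS1 and 9.15 ± 1.91 for AGA1 (SD, n = 10). MFA1 and STE2 were neighbours in this order with overlapping libraries, 303 to 440 RPKM against 315 to 376 RPKM, and so were FUS1 and AGA1. AGA1 had too little RNA for the RNA tests, which asked for a mean of 10 RPKM and covered 5031 genes and 7 of the 8 members. These are levels per length and order the genes only roughly, since MFA1 and MFA2 have 36 and 38 codons and the others more.

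Wild-type footprints of MFA1, MFA2, AGA1, AGA2 and FUS1 were higher in sets 3 and 2 than in set 1, while their RNA differed from set 1 by −0.37 to 0.20 on the log2 scale. These are descriptions with no test. MFA1 footprints averaged 1125 ± 278 RPKM in set 3 (n = 4) and 991 ± 127 RPKM in set 2 (n = 4), against 446 ± 61.8 RPKM in set 1 (SD, n = 6). No library of sets 3 and 2 lay under 816 RPKM, and the 6 libraries of set 1 lay between 398 and 556 RPKM. On the log2 scale, MFA1 footprints were higher by 1.15 in set 2 than in set 1, and only 0.0934% of tested genes were at least as high, while MFA1 RNA differed by −0.37. MFA2 footprints averaged 1242 ± 192 RPKM in set 3 and 1159 ± 176 RPKM in set 2, against 674 ± 74.4 RPKM in set 1. AGA1 footprints averaged 57.2 ± 15.5 RPKM in set 3 and 35.1 ± 7.09 RPKM in set 2, against 25.7 ± 4.76 RPKM in set 1. AGA2 and FUS1 had the same order of set means. STE6, STE2 and BAR1 differed far less between sets 2 and 1, by −0.10, −0.12 and −0.0045 log2. In set 3 these 3 genes were higher than in set 1 by 0.24, 0.27 and 0.21. They were higher in set 3 than in set 2 by 0.34, 0.39 and 0.21, where MFA1 and MFA2 differed by 0.16 and 0.10. BAR1 stood at 165 ± 6.36 RPKM in set 3 and 142 ± 12.5 RPKM in set 2, against 143 ± 12.3 RPKM in set 1. What differed between the sets is not stated in the sources used here, and its part in these levels was not tested.

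**Figure D1:**
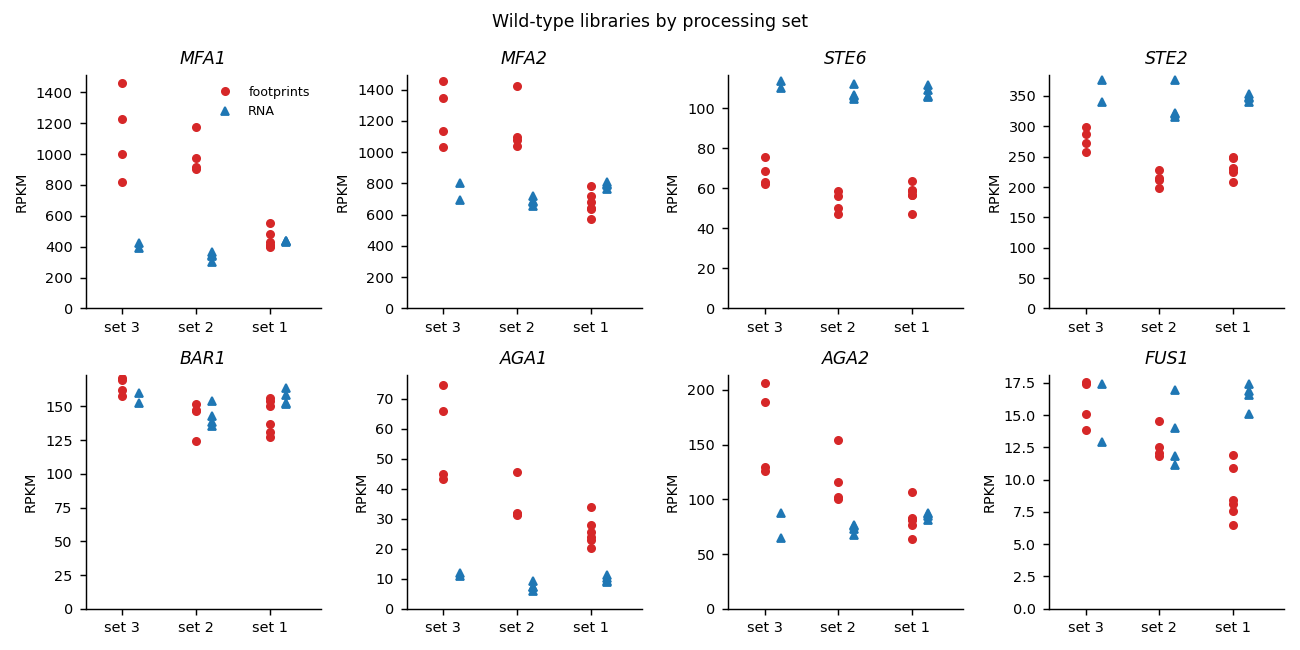
Wild-type RPKM of the 8 genes (y axis, from 0) by processing set (x axis), with 1 circle a footprint library and 1 triangle an RNA library. MFA1 footprints averaged 1125 RPKM in set 3 and 991 RPKM in set 2, against 446 RPKM in set 1, while BAR1 averaged 165 RPKM in set 3 and 142 RPKM in set 2, against 143 RPKM in set 1.

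The mating type in the labels was checked with the 4 alpha-specific genes. The alpha-factor precursors MF(ALPHA)1 and MF(ALPHA)2 reached at most 3.15 and 2.15 RPKM in any footprint library, with a median of 0. The other 2 were STE3, the receptor for a-factor, and SAG1, the alpha-agglutinin. The summed footprint level of the 4 genes was at most 6.96 RPKM in the 107 libraries of strains outside KEOPS. It was 0.890 to 5.06 RPKM in the 14 wild-type libraries. Summed RNA reached 21.9 RPKM in strains outside KEOPS, against 9.58 to 12.5 RPKM in wild type. STE3 RNA was highest in pus3D, at 9.85 RPKM, against 1.35 to 2.58 RPKM in wild type.

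Across the deletion strains, the 8 genes fell far more often than they rose. Of 448 comparisons of a member with wild type in the 56 strains with 2 libraries, 82 were called lower, or 18.3%, and 11 were called higher, or 2.46%. Over all genes and the same strains, 6.17% of comparisons were called lower and 10.2% higher. With the set as a term, 60 of 440 member comparisons were called lower and 9 higher, where all genes gave 3.98% lower and 8.17% higher. Without gon7D, bud32D and trm112D, 66 of 424 were called lower and 6 higher, where all genes gave 5.42% lower and 7.9% higher. In 30 strains no member was called, and in 26 strains at least 1 was. All 8 members varied between strains in limma's F test over all strains, as did 97.9% of all genes, with BAR1 at rank 130 of 4281 and AGA2 at rank 2216.

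BAR1 was called lower in 18 of the 56 strains and higher in none, and AGA1 lower in 16 and higher in none. With the set as a term these counts were 12 and 14 of 55 strains. STE6 was lower in 13 strains and higher in 2, FUS1 lower in 11 and higher in 1, and AGA2 lower in 4 and higher in 1. MFA1 was lower in 7 strains and higher in 4, MFA2 lower in 6 and higher in 2, and STE2 lower in 7 and higher in 1. The set term cut MFA1 to 6 lower and 2 higher and STE6 to 6 lower and 2 higher.

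**Figure D2:**
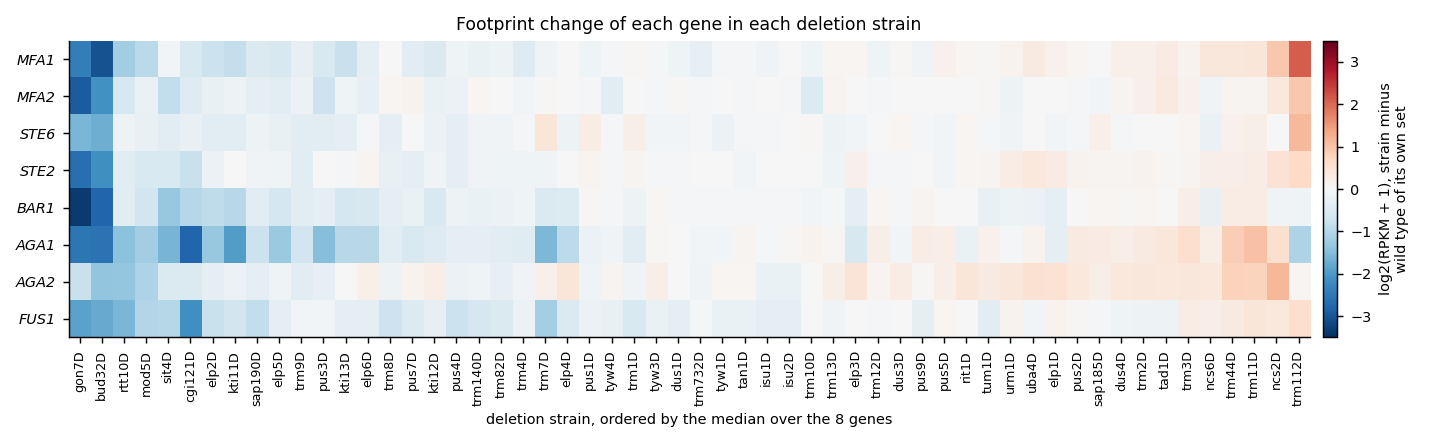
Footprint difference on the log2(RPKM + 1) scale, strain minus the mean of wild type of the same set (colour, red higher and blue lower), for the 8 genes (rows) in 56 deletion strains (columns, ordered by their median over the genes). gon7D and bud32D stand at the blue end, with BAR1 at −3.34 and −2.76, and MFA1 in trm112D is the deepest red at 2.11.

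In the KEOPS strains gon7D and bud32D, footprints and RNA of nearly the whole group fell several-fold. In gon7D, 7 of the 8 members were called lower and none higher, where 22.3% of all tested genes were lower and 49.7% higher. In bud32D all 8 were lower, where 22% of all tested genes were. With the set as a term all 8 were lower in both strains, where 24.4% of all genes were lower in gon7D and 22.9% in bud32D, with a median member change of −2.48 in gon7D and −2.14 in bud32D, against 0.19 and 0.14 for the median of all genes. In bulk samples, fewer expressing cells and less RNA per cell cannot be told apart.

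MFA1 footprints stood at 183 and 231 RPKM in gon7D and at 184 and 94.3 RPKM in bud32D, against 816, 1228, 1457 and 1000 RPKM in the wild-type libraries of their set. No library of either strain overlapped wild type. The change was −1.81 ± 0.27 in gon7D (limma, ± SE; adjusted p = 2.04e-08) and −2.45 ± 0.27 in bud32D (adjusted p = 1.72e-12), and −2.41 and −3.05 with the set as a term. MFA1 RNA was 57.0 RPKM in gon7D and 45.7 RPKM in bud32D, against 392 and 424 RPKM in wild type of the set.

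MFA2, the other a-factor gene, had 114 and 232 RPKM in gon7D and 387 and 204 RPKM in bud32D, against 1139, 1453, 1345 and 1031 RPKM in wild type. Fitted with sets, the fall was larger in gon7D, by −2.91 ± 0.19, than in bud32D, by −2.13 ± 0.19, while for MFA1 that order was turned round. The difference between the strains was not tested. MFA2 RNA was 57.5 RPKM in gon7D and 197 RPKM in bud32D, against 694 and 803 RPKM in wild type.

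BAR1, the alpha-factor protease, showed the largest footprint fall of the group in gon7D, while in RNA of that strain MFA2 was at −3.66 and BAR1 at −3.59 on the log2 scale. It stood at 9.46 and 24.7 RPKM in gon7D and at 23.7 and 23.1 RPKM in bud32D, against 171, 162, 169 and 157 RPKM in wild type. The change was −3.19 ± 0.13 in gon7D (adjusted p = 9.81e-35) and −2.61 ± 0.13 in bud32D (adjusted p = 2.56e-29), and BAR1 RNA was 11.6 RPKM in gon7D and 28.0 RPKM in bud32D, against 152 and 160 RPKM in wild type.

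The receptor gene STE2 had 38.4 and 50.5 RPKM in gon7D and 116 and 32.4 RPKM in bud32D, against 299.5, 272, 287 and 257 RPKM in wild type. It fell by 2.41 ± 0.15 in gon7D and by 1.93 ± 0.15 in bud32D. The 2 bud32D libraries lay far apart, and the change was −1.03 without library 2. The a-factor transporter STE6 had 18.5 and 25.0 RPKM in gon7D and 21.3 and 18.3 RPKM in bud32D, against 75.6, 62.1, 68.7 and 63.3 RPKM in wild type, changes of −1.40 ± 0.11 and −1.52 ± 0.11.

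Of the agglutinin pair, the anchor AGA1 fell in both strains, by −1.88 ± 0.27 and −1.93 ± 0.27, and the binding subunit AGA2 moved less. AGA1 had 5.11 and 14.5 RPKM in gon7D and 6.71 and 10.4 RPKM in bud32D, against 43.4, 66.0, 74.5 and 45.0 RPKM in wild type. AGA2 had 84.6 and 100.0 RPKM in gon7D and 66.5 and 54.1 RPKM in bud32D, against 129, 189, 207 and 126 RPKM in wild type. The AGA2 change in gon7D was −0.24 ± 0.25 against all wild-type libraries, which was not called, and −0.78 ± 0.25 in the fit with sets (adjusted p = 0.00509). FUS1 had 2.93 and 4.48 RPKM in gon7D and 3.28 and 4.75 RPKM in bud32D, against 15.1, 17.6, 17.4 and 13.9 RPKM in wild type.

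cgi121D lacks another subunit of the same complex and showed a smaller set of falls. BAR1 was lower at 96.6 and 68.7 RPKM, STE2 at 184 and 145 RPKM, AGA1 at 10.7 and 4.94 RPKM and FUS1 at 4.13 and 1.88 RPKM, each under every wild-type library of the set. The changes were −0.86 ± 0.13, −0.54 ± 0.15, −2.10 ± 0.27 and −1.71 ± 0.25, and 15.9% of all tested genes were called lower in this strain. MFA1 had 958 and 610 RPKM, MFA2 1125 and 730 RPKM, STE6 59.5 and 52.1 RPKM and AGA2 168 and 74.7 RPKM, and these 4 were not called.

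**Figure D3:**
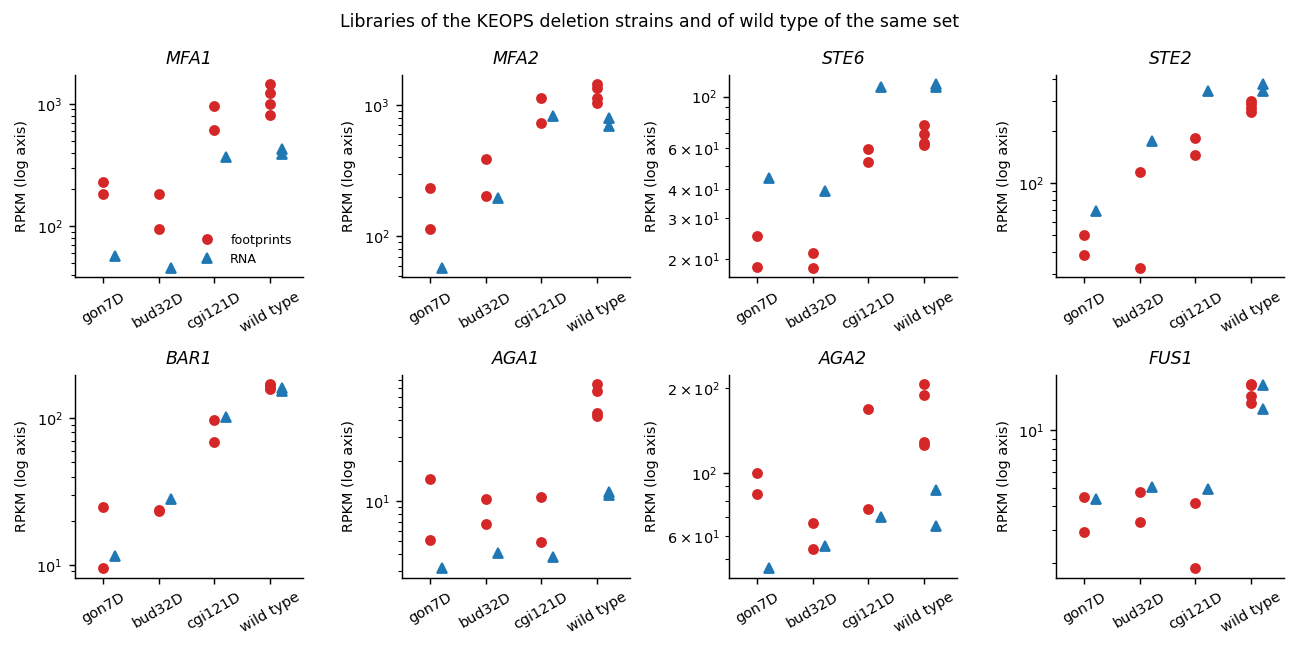
RPKM on a log axis for the 8 genes in the KEOPS strains gon7D, bud32D and cgi121D and in wild type of the same set, with circles for footprint libraries and triangles for RNA libraries. BAR1 footprints lie at 9.46 and 24.7 RPKM in gon7D, against 157 to 171 RPKM in wild type, while AGA2 lies closest to wild type.

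Averaged over the 3 KEOPS strains, all 8 members were called lower in footprints, where 24.1% of all tested genes were lower. The changes ran from −2.22 ± 0.08 for BAR1 to −0.35 ± 0.16 for AGA2, whose adjusted p was 0.0463. The members' median was −1.46, against 0.17 for all genes tested. In RNA all 7 tested members were called lower, where 16.3% of all genes were, from −2.18 ± 0.28 for BAR1 to −0.46 ± 0.15 for AGA2. The fall was not shared by all members in cgi121D, where RNA of 3 of the 8 lay under every wild-type RNA library and of 1 above. There MFA1, MFA2 and STE6 RNA differed from wild type by −0.07, 0.15 and 0.02. The RNA call of AGA2 did not survive the set term (adjusted p = 0.0755).

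Other genes of the mating system went different ways in the same 2 strains. SST2, which shuts down signalling at the receptor's G protein, had 4.93 and 6.72 RPKM in gon7D and 5.51 and 6.33 RPKM in bud32D, against 31.7 to 56.8 RPKM in wild type. Of the 17 genes of pheromone signalling, 6 were called lower and 5 higher in gon7D, and 6 lower and 4 higher in bud32D, where 49.7% of all tested genes were higher in gon7D and 44.6% in bud32D. Lower were also STE4, the G protein beta subunit, and FAR1, which holds the cell cycle in pheromone, by −0.91 and −1.09 in gon7D and by −0.51 and −1.15 in bud32D with the set as a term. Of the 14 pheromone-induced genes, 5 had enough reads, and 3 of them were higher and 2 lower in gon7D. In bud32D, 2 were higher and 2 lower. Lower in both strains were PRM4 and ASG7, which is also a-specific. With the set as a term they fell by −1.37 and −0.95 in gon7D and by −1.40 and −1.13 in bud32D. PRM5 was the clearest rise, at 89.2 and 144 RPKM in gon7D and 248 and 220 RPKM in bud32D, against 47.3 to 66.9 RPKM in wild type. PRM5 also answers to cell wall stress. Of the 6 tested genes of a-factor maturation, 2 were higher and none lower in gon7D, and 2 were lower and none higher in bud32D.

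The alpha-specific genes and the silencing genes, which keep the silent copies of the mating-type genes off, had these levels beside the falls in gon7D and bud32D. The summed footprint level of the 4 alpha-specific genes was 4.98 and 17.8 RPKM in gon7D, 5.38 and 8.19 RPKM in bud32D and 0.134 and 0.408 RPKM in cgi121D, against 0.890 to 5.06 RPKM in wild type. Most of it was STE3, at 4.31 and 13.97 RPKM in gon7D and 4.47 and 7.89 RPKM in bud32D, against 0.382 to 1.82 RPKM in wild type. MF(ALPHA)2 was at 0 in all 4 libraries of gon7D and bud32D, and MF(ALPHA)1 had 0.533 and 3.15 RPKM in gon7D and 0.726 and 0 RPKM in bud32D. SAG1 RNA was 26.1 RPKM in gon7D and 20.4 RPKM in bud32D, against 7.77 to 9.48 RPKM in wild type, while its footprints, at 0.136 and 0.642 RPKM in gon7D and 0.185 and 0.295 RPKM in bud32D, did not exceed the 0.190 to 1.24 RPKM of wild type. The silencing deacetylase gene SIR2 had footprints of 4.24 and 5.19 RPKM in gon7D and 14.2 and 7.17 RPKM in bud32D, against 18.2 to 27.0 RPKM in wild type. Its RNA, at 19.3 RPKM in gon7D and 19.7 RPKM in bud32D, lay within the wild-type range of 18.6 to 26.7 RPKM. SIR2 was the one silencing gene of 3 tested that was called lower in either strain. The part of these genes in the falls of the members was not tested.

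In trm112D, MFA1, MFA2 and STE6 rose. In the main fit 5 of the 8 members, these and STE2 and FUS1, were called higher and AGA1 lower, a share near that of all tested genes, of which 57% were higher and 13.9% lower. MFA1 stood at 4722 and 3830 RPKM in trm112D, against 915, 971, 902 and 1176 RPKM in the wild-type libraries of its set. Both libraries exceeded every wild-type library of the series, and the change was 2.56 ± 0.27 (adjusted p = 6.21e-13), or 2.11 ± 0.22 with the set as a term. MFA1 RNA was 787 RPKM, against 303 to 363 RPKM in wild type of the set. MFA2 had 2483 and 1986 RPKM in trm112D, against 1042 to 1421 RPKM in wild type, and STE6 had 124 and 110 RPKM, against 47.4 to 58.7 RPKM. STE2 had 336 and 348 RPKM, against 198 to 229 RPKM.

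The median of all genes in trm112D was itself 0.35 higher than in wild type on the log2 scale, and both libraries were shallow, at 1.78 and 0.811 M reads. After each library was centred on its median, STE2 was no longer called, at 0.17, and FUS1 was not either. AGA1 had 19.60 and 13.02 RPKM in trm112D, against 31.1 to 45.7 RPKM in wild type, and fell by 1.07 ± 0.27. BAR1, at 138 and 119 RPKM, was not called. Of the 17 pheromone signalling genes, 15 were called higher in trm112D and none lower, where 57% of all tested genes were higher. Their median change was 0.80, against 0.35 for all genes, and no count after centring is given for them. trm9D, which lacks the enzyme that Trm112 activates in wobble modification, had MFA1 at 827 and 991 RPKM, against 816 to 1457 RPKM in wild type of its set, and it was called in neither fit. Its change was 0.33 ± 0.27 against all wild-type libraries (adjusted p = 0.476) and −0.28 ± 0.22 in the fit with sets (adjusted p = 0.501).

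In the Trm7 group, rtt10D stood apart. FUS1 had 0.744 and 4.83 RPKM in rtt10D, against 6.47 to 11.9 RPKM in the 6 wild-type libraries of set 1. AGA2 had 22.5 and 43.1 RPKM, against 63.8 to 107 RPKM, and MFA1 had 128 and 276 RPKM, against 398 to 556 RPKM. In the main fit 6 members were called lower, where 4.6% of all tested genes were, and with the set as a term MFA1 (−1.23), AGA1 (−1.44), AGA2 (−1.36) and FUS1 (−1.61) kept their calls, where 0.631% of all genes were lower. In each of these genes library 1 was the lower, and the calls of MFA1, AGA2 and FUS1 were lost without it. RNA of the single rtt10D library was also under all 4 wild-type RNA libraries of set 1, by less than the footprints and with no test. MFA1 had 335 RPKM, against 431 to 439.9 RPKM, AGA2 had 68.9 RPKM, against 81.0 to 87.5 RPKM, and FUS1 had 13.1 RPKM, against 15.1 to 17.4 RPKM. The RNA differences from wild type of the set were −0.38 for MFA1, −0.30 for AGA2 and −0.31 for FUS1 on the log2 scale. None of the 3 lay outside the 10 wild-type RNA libraries of the whole series.

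In trm7D, AGA1 had 8.73 and 7.01 RPKM, against 20.2 to 33.9 RPKM in wild type of its set, and FUS1 had 4.16 and 2.55 RPKM, against 6.47 to 11.9 RPKM. BAR1 fell by 0.58 ± 0.13. STE6 was higher, at 83.6 and 70.5 RPKM, against 47.3 to 63.6 RPKM, with a change of 0.39 ± 0.11. In this strain 16.9% of all tested genes were called lower and 30.6% higher. Over trm7D, trm732D and rtt10D together, AGA1 changed by −1.48 ± 0.17 and FUS1 by −1.31 ± 0.16, and by −1.04 and −0.94 with the set as a term. There 16.3% of all tested genes were called lower. MFA1, at −1.25 ± 0.18, and BAR1, at −0.38 ± 0.08, were also called lower. These 2 genes kept their calls in the fit with sets, at −0.55 and −0.32. The strain trm732D by itself had no member called in either fit. Against wild type of the set, AGA1 differed by −0.09 in trm732D, −1.58 in trm7D and −1.44 in rtt10D. FUS1 differed by −0.03, −1.18 and −1.61 in the same order. MFA2 and AGA2 were called in the main fit of this group and lost the call with the set as a term.

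Strains of the Elongator group had less footprint signal of BAR1 and AGA1, and strains of the thiolation group, which act on the same wobble uridine, gave no call for AGA1, at 0.11 ± 0.15 (adjusted p = 0.555). BAR1 averaged 97.9 ± 16.9 RPKM over the libraries of the 9 Elongator strains, against 149 ± 14.6 RPKM in wild type (SD over libraries). Its change was −0.61 ± 0.06, with all 9 strains lower. AGA1 averaged 18.0 ± 6.21 RPKM in Elongator strains, against 37.4 ± 16.2 RPKM in wild type, with a change of −0.97 ± 0.13, again with all 9 strains lower. Of the 8 members, 4 were called lower and none higher, where 18.1% of all tested genes were lower. Fitted with sets, MFA1 was called lower too, at −0.40 ± 0.09 (adjusted p = 0.000279), against −0.30 ± 0.13 in the main fit (adjusted p = 0.0517), and 18% of all tested genes were lower. STE6 changed by −0.25 ± 0.05 and FUS1 by −0.32 ± 0.12, and the FUS1 call was lost without elp2D or without kti11D. In RNA, BAR1 changed by −0.55 ± 0.20 and FUS1 by −0.45 ± 0.12 and the other 5 tested members were not called, where 10.1% of all genes were lower. The BAR1 call was lost when elp3D, elp5D, elp6D or kti11D was left out.

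kti11D showed the largest AGA1 fall in the main fit, by −2.39 ± 0.27, at 5.54 and 6.13 RPKM, against 20.2 to 33.9 RPKM in wild type of its set. Fitted with sets, AGA1 fell further in cgi121D, by −2.77, than in kti11D, by −1.95. Kti11 is needed by Elongator and also for the synthesis of diphthamide on elongation factor 2. BAR1 in kti11D had 70.2 and 72.8 RPKM, against 128 to 156 RPKM, and MFA1 had 223 and 274 RPKM, against 398 to 556 RPKM. In all, 7 members were called lower in kti11D and 5 with the set as a term, where 14.5% of all tested genes were lower in the main fit and 11.2% in the fit with sets.

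In the 5 thiolation strains, MFA1 was higher by 0.58 ± 0.15 and AGA2 by 0.54 ± 0.14, where 28.3% of all tested genes were called higher and 20.3% lower. Both rises kept the call with the set as a term. BAR1, at −0.26 ± 0.07, and STE6, at −0.20 ± 0.06, were called lower and were not called in the fit with sets (adjusted p = 0.0599 and 0.371). The rises were clearest in ncs2D, where MFA1 had 2066 and 1717 RPKM, against 902 to 1176 RPKM in wild type of its set, and AGA2 had 273 and 248 RPKM, against 100.0 to 154 RPKM. In ncs2D, 18.6% of all tested genes were called higher.

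The difference between the groups was tested directly. Elongator strains minus thiolation strains gave −1.08 ± 0.14 for AGA1 (adjusted p = 1.24e-08), −0.88 ± 0.15 for MFA1 (3.49e-06), −0.35 ± 0.07 for BAR1 (0.000101), −0.40 ± 0.13 for AGA2 (0.0205) and −0.40 ± 0.13 for FUS1 (0.0213). All 5 were negative, where 8.18% of all tested genes were called lower. Without library 1 or without library 2 of each strain, only BAR1 and AGA1 kept their calls.

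**Figure D4:**
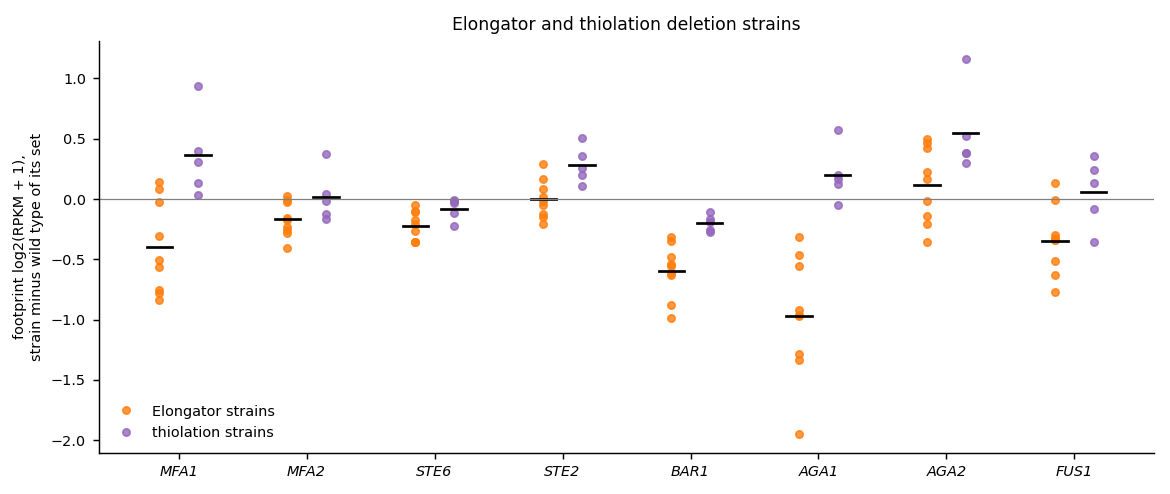
Footprint difference on the log2(RPKM + 1) scale, strain minus wild type of its own set, for the 8 genes, with 1 point a strain, 9 Elongator strains left and 5 thiolation strains right of each gene, and bars at the mean over strains. AGA1 and BAR1 lie under 0 in all 9 Elongator strains, while AGA1 lies above or close to 0 in the 5 thiolation strains.

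The AAA, CAA and GAA codons made up 13.9% of codons in MFA1 and 13.2% in MFA2, above the median of 11.6% over 4245 genes. They made up 4.97% in AGA1, the 2nd percentile, 6.26% in STE2, the 5th percentile, and 8.86% in BAR1. The share was 10.6% in STE6, 10.2% in FUS1 and 8.05% in AGA2. Of the members called lower in the Elongator strains, BAR1, AGA1, STE6 and FUS1 stood below the median and MFA1, called in the fit with sets, stood above it. The part of codon content in the changes of the members was not tested.

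Another pair of strains had many calls. In sit4D, which lacks a phosphatase that Elongator needs, BAR1 had 57.7 and 54.8 RPKM, against 124 to 152 RPKM in wild type of its set, and AGA1 had 9.75 and 11.6 RPKM, against 31.1 to 45.7 RPKM. There 6 members were called lower in both fits, where 23.7% of all tested genes were lower in the main fit and 18.5% in the fit with sets. In mod5D, which lacks the enzyme that adds an isopentenyl group beside the anticodon, AGA2 had 49.1 and 61.2 RPKM, against 100.0 to 154 RPKM. There 6 members were called lower and 5 with the set as a term, where 11.7% of all tested genes were lower in the main fit and 2.59% in the fit with sets.

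Footprint and RNA differences of the members went together across strains. With each strain set against wild type of its own set and assay, Pearson's r over 56 strains was 0.96 for BAR1, 0.92 for STE2 and STE6, 0.91 for MFA1, 0.89 for MFA2, 0.86 for AGA1, 0.81 for FUS1 and 0.66 for AGA2. Without gon7D and bud32D these were 0.86, 0.81, 0.77, 0.81, 0.53, 0.83, 0.75 and 0.66, in the same order. Strains of a set share its wild-type libraries, so the points are not independent and no p is given. In RNA of single strains, 20 of 399 comparisons with wild type were at least 2-fold lower and outside the wild-type range, and 1, MFA1 in trm112D, was higher by that rule. Over all genes 0.343% were lower and 0.662% higher.

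The ratio of footprints to RNA was not called for any member. In limma's interaction of assay and strain group over 4253 genes, 0 of 35 tests of a member in the 5 groups passed, and 6 had an unadjusted p under 0.05, of which 3 were in the Trm7 group, 2 in thiolation and 1 in Trm9-Trm112. Of all genes, 1.93% were called in the Elongator group, 0.376% in thiolation, 3.03% in KEOPS and 0% in Trm9-Trm112 and in Trm7.

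**Figure D5:**
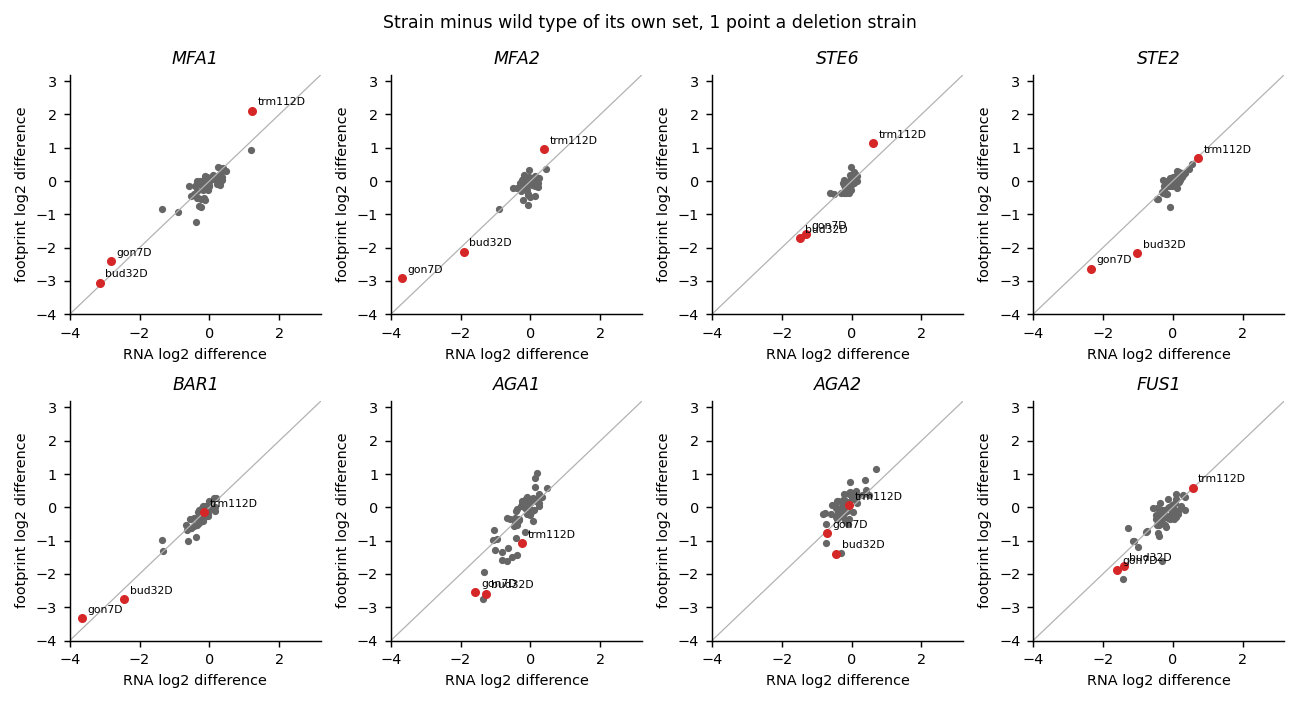
Footprint difference (y axis) against RNA difference (x axis), both strain minus wild type of the same set in log2(RPKM + 1), with 1 point for each of 56 deletion strains, gon7D, bud32D and trm112D in red and the line of equality in grey. For BAR1 the points follow the line with r of 0.96, and for AGA2 they scatter more, with r of 0.66.

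The genes whose footprint changes over the 56 strains were most like those of each member were picked by Pearson's r over all tested genes. STE2 was closest to SST2, with r of 0.96 in footprints and 0.90 in RNA. SST2 was also the closest to STE6, with r of 0.86. AGA1 and AGA2 were both closest to ASG7, an a-specific gene that also holds the operator letters, with r of 0.77 and 0.74. FUS1 was closest to FUS3, the MAP kinase of the pathway, with r of 0.77, and then to FAR1. BAR1 was closest to SEC53, an enzyme on the way to the mannose donor of glycosylation, with r of 0.91, and to AAH1 and the ribosomal protein gene RPL3. MFA1 was closest to NIS1 and DIG1, with r of 0.85 each, but in RNA r was 0.62 for NIS1 and −0.0084 for DIG1. MFA2 was closest to the ribosomal protein genes RPS26B, RPL37B and RPL26A, with r between 0.87 and 0.90. In the fit with sets SST2 remained the closest gene to STE2 and STE6 and SEC53 to BAR1, while NIS1 for MFA1, ASG7 for AGA1 and FUS3 for FUS1 came at rank 3, ASG7 for AGA2 at rank 2 and RPS26B for MFA2 at rank 12. The ribosomal protein genes have near-identical copies, so their values are uncertain. These are descriptions over strains that share wild-type libraries. They include gon7D and bud32D, where SST2, STE2 and STE6 all fell, and were not repeated without these strains.

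Without cycloheximide there was 1 library a strain and no test. All 5 deletion strains share the single drug-free wild-type library, and 35 of their 40 member values were lower than in it, where 43.5% of all gene values were. The members were lower in 8 of 8 cases in mod5D, where 51.3% of all genes were, and in 8 of 8 in tan1D (48.8%). They were lower in 7 of 8 in elp3D (38.4%), 7 of 8 in tyw4D (47.3%) and 5 of 8 in trm7D (31.8%). These counts rest on 1 shared wild-type library and cannot show whether the strains differ. Log2 differences in mod5D were −1.69 for AGA1, −1.27 for MFA1 and −0.20 for STE6. In tan1D they were −0.41, −0.40 and −0.08 in the same order. AGA1 had 18.1 RPKM in elp3D, 10.8 in mod5D and 11.9 in trm7D, against 37.0 RPKM in wild type. BAR1 had 125 RPKM in elp3D, 120.6 in mod5D and 144 in trm7D, against 202 RPKM in wild type. MFA1 had 213 RPKM in mod5D, against 513 RPKM in wild type.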

How the data were processed

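The authors deposited RPKM for footprints and RNA, and per the submitters' processing notes reads were mapped to sacCer3 with TopHat2 2.0.12, SAMtools and HOMER 4.6. RPKM hides depth, so mapped reads were recovered from the steps between low values: 95.0% to 98.4% of footprint values of up to 20 reads came out whole within 0.1 reads, where chance gives 20%. Median depth was 3.11 M for footprints, 10.4 M for RNA and 6.27 M without the drug. The reads were not given to a count test, since the values are RPKM. The ratio table that the authors deposited (a linear ratio of strain to wild type) served only to find, within 0.001 on the log2 scale, which wild-type libraries each strain had been divided by. These groups are the 3 processing sets.

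Values were turned into log2(RPKM + 1) and fitted with limma 3.58.1 (R 4.3.3, empirical Bayes with trend) on genes averaging 10 RPKM or more, with 1 coefficient a strain against all wild-type libraries. Strain groups were averages of these coefficients, so their SE and p hold the spread between libraries and not that between strains. RNA has 1 library a strain, so single strains were described by range and fold only. The fits were tested on simulated data. Same-numbered libraries did not deviate together (median r 0.0140 over 1540 pairs of strains), so the numbers pair nothing. The members, lists and strain groups were chosen with earlier results of these data known. Named were all members, per member up to 3 highest and 3 lowest called strains, the 3 most alike genes, and up to 3 most often called genes of each other list. Alternatives were other pseudocounts, a lower minimum, median centring, quantile normalization, the set as a term, libraries or strains left out, and a replicate block. The counts without gon7D, bud32D and trm112D, and the fit of libraries 1 and 2 with no block, were added after seeing the data. Sequences came from the R64 RefSeq genome. The genotypes of drug-free libraries came from their titles.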

Additional observations from a re-analysis of the deposited data

Results flagged for a closer look

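5 members differed between Elongator and thiolation strains in a direct test of the difference, which did not count spread between strains of a group. Elongator minus thiolation was −1.08 for AGA1, −0.88 for MFA1, −0.40 for AGA2, −0.40 for FUS1 and −0.35 for BAR1 on the log2(RPKM + 1) scale. Against wild type, AGA1 was at −0.97 in the Elongator strains and 0.11 in the thiolation strains, BAR1 at −0.61 and −0.26, MFA1 at −0.30 and 0.58, AGA2 at 0.14 and 0.54, and FUS1 at −0.32 and 0.08, with the Elongator value first. No wild-type RNA group of the 8 genes that was checked for a single distant library had one.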

How the results depend on the processing

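Of 901 repeated single values over 76 results, 780 kept direction and side of the threshold, 120 kept direction and lost the call, and 1 changed sign: STE6 in the Trm9-Trm112 group was 0.42, became −0.16 without trm112D and 0.99 without trm9D. That group rests on trm112D, since MFA1 was 0.33 without it and 1.44 with it. Member calls in single strains, 11 higher and 82 lower, became 4 higher and 37 to 39 lower when library 1 or 2 of each strain was left out, and 6 higher without gon7D, bud32D and trm112D (added after seeing the data). The fit with the replicate block on libraries 1 and 2 gave 81 higher and 55 lower, and so did the same libraries with no block (81 higher; added after seeing the data). In both, 36 of the 81 higher calls were of MFA1 and 32 of MFA2, and wild type was 2 libraries of set 1 only. The block itself changed no count. Footprint calls of the strain groups, 28 of 40, became 17 to 29 when a library or a strain was left out. They became 21 under the block. With 1 value a strain, which counts the spread between strains and has fewer samples, they became 12. Elongator minus thiolation calls, 5 of 8, became 2 without library 1 or without library 2, and 6 under the block. RNA calls of single strains, 1 higher and 20 lower, became 0 higher after median centring, and 6 higher and 40 lower at 1.5-fold. RNA calls of the strain groups, 9 of 35, ranged from 8 to 11, and the ratio of footprints to RNA gave 0 under every alternative run. Depth limits FUS1 and AGA2 most in footprints, with medians of 50 and 105 reads, and AGA1 RNA was tested only with the minimum lowered to 1 RPKM.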

Other observations

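The strain kti13D had a single footprint library and no test. There BAR1 had 106 RPKM and AGA1 had 27.9 RPKM, against 157 to 171 RPKM and 43.4 to 74.5 RPKM in wild type of its set.

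Of the remaining mating genes, STE4 was called lower in 15 of 56 strains and higher in 1, and STE24, the protease that trims a-factor, lower in 12 and higher in 1. PRM5 was called higher in 20 strains and lower in 2. SIR3 was called higher in 6 strains and lower in none, and SIR2 lower in 8 and higher in none. Over all genes 6.17% of comparisons were lower and 10.2% higher, so the share of higher calls of SIR3 was near that background in this fit. These counts come from the main fit. With the set as a term they were 11 and 1 for STE4, 10 and 1 for STE24 and 19 and 1 for PRM5. For SIR3 they were 9 and 0 and for SIR2 5 and 0, in the same order of direction. That fit covered 55 strains and gave 3.98% lower and 8.17% higher over all genes, so SIR3 was above the background there.

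The ratio of footprints to RNA in wild type placed AGA1 at percentile 98.8 against 4253 genes in set 1 and STE6 at percentile 5.996. In sets 2 and 3 AGA1 was at 99.6 and 99.8 and STE6 at 8.04 and 8.58. AGA1 RNA was under the 10 RPKM asked for in the ratio test, so its ratio is uncertain. Some ranks depended on the set, such as MFA1 at 46.8 in set 1 and at 98.2 and 98.0 in sets 2 and 3.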
